A study of Homo sapiens with 6 samples.

Results

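A set of 10 early-response genes was followed in cells transfected with a microRNA mimic: the immediate early response genes IER2, IER3 and IER5, the transcription factor gene MYC with its dimer partner MAX, the inhibitor of DNA binding genes ID1, ID2, ID3 and ID4, and the Notch-responsive repressor gene HES1. They were taken by gene name, and all 10 were found among 58174 listed genes. The mimic group was 3 samples labelled Huh-7, an established human hepatocellular carcinoma line, transfected with miR-27a-3p mimics. The control group was 3 samples of the same line transfected with a negative control, whose sequence is not named. All 6 were transfected with Lipofectamine, taken 48 h later after trypsin digestion and sequenced as mRNA libraries, and expression was given as FPKM (fragments per kilobase of gene, scaled to the library total). The series concerns cisplatin sensitivity, but the labels name no cisplatin treatment. It is not stated whether the samples of a group were separate cultures, so each p-value below refers to sample-to-sample spread that could be purely technical.

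Early-response genes are switched on within minutes to hours of a growth factor or stress signal, and their short-lived mRNAs fall again soon after it ends. MYC binds DNA as a dimer with MAX and drives genes of ribosome making and metabolism. ID proteins have a helix-loop-helix domain without the basic region that touches DNA, so they hold E proteins such as TCF3 away from DNA, and their genes are classical targets of bone morphogenetic protein (BMP) signalling through SMAD factors. HES1 is a helix-loop-helix repressor that the Notch-bound factor RBPJ switches on and that limits its own transcription. In liver, ID1 and SMAD7 are BMP targets tied to iron sensing, and HES1 acts in bile duct development.

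In the mimic samples HES1 was much lower, IER2, IER3 and ID2 were lower, ID3 was higher, and ID1 was higher at the edge of the threshold. IER5, MYC and MAX did not pass the test, and ID4 was listed at 0 in all 6 samples. Of 9 members with a mean of at least 1 FPKM, 4 were called lower and 2 higher (limma, Benjamini-Hochberg adjusted p below 0.05 over 14439 genes). ID2 passed that filter only through its control mean of 3.13 FPKM, since its mimic mean was 0.63. Among all genes tested, 39.6% were called lower and 12.0% higher, or 51.6% in either direction, so the members' counts are read against that background and not as a result about them. The groups did not overlap in 4 members that were lower and 2 that were higher in mimic samples, against 44.3% and 16.2% of all tested genes. On the FPKM as deposited, the middle gene of all those tested had a log2 fold change of -0.29. Scaling by the median of ratios moves that middle to 0.01, and the members again gave 4 lower and 2 higher calls, while 27.4% of all genes were lower and 26.9% higher. For protein-coding genes alone the middle was -0.17 as deposited and 0.13 after that scaling. Fold changes below are mimic over negative control on the log2(FPKM + 0.5) scale with their standard error (SE), which understates the change of low genes.

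**Figure D1:**
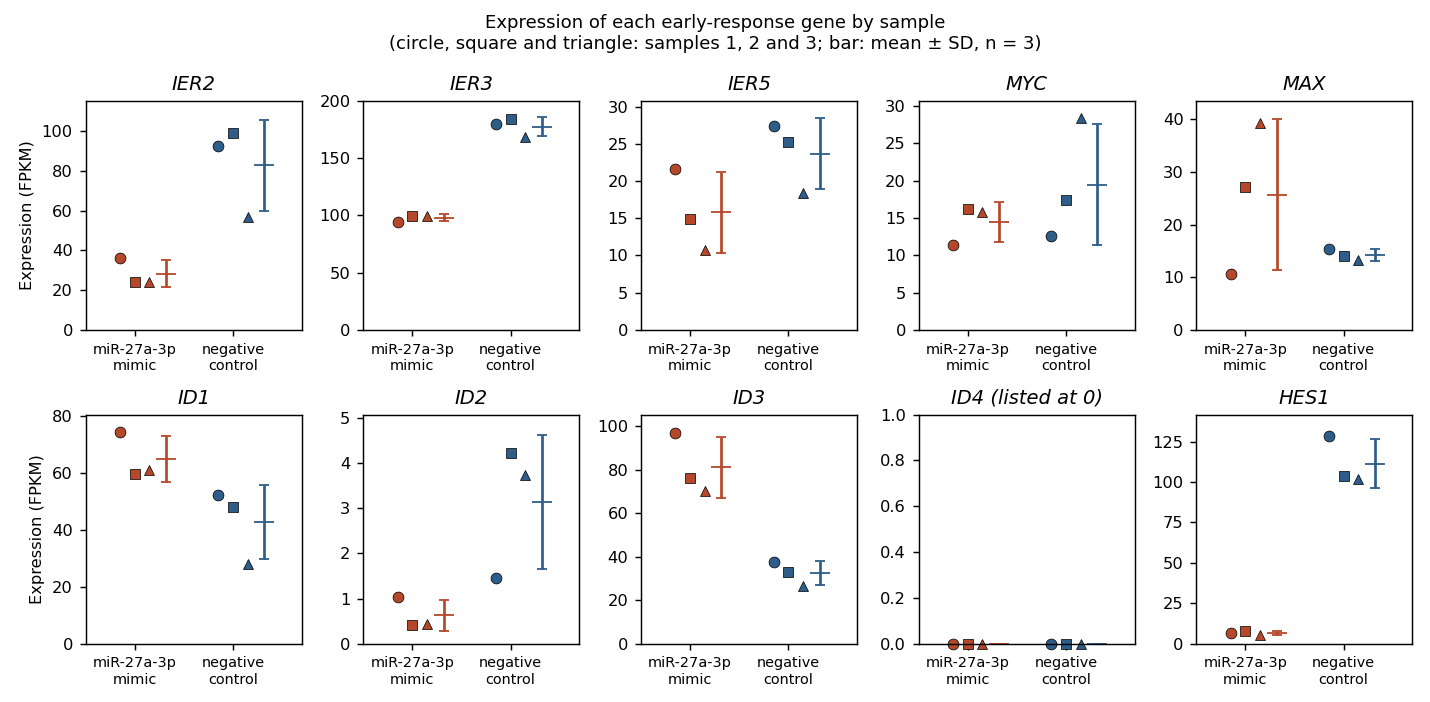
FPKM of each of the 10 genes in the 3 mimic samples (left, red) and the 3 negative control samples (right, blue), with the mean and SD of each group (n = 3). HES1 lies between 5.345 and 7.73 in mimic samples, against 101.6 to 128.8 in controls, MYC overlaps between the groups, and ID4 is at 0 throughout.

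Depth and sample identity bear on every value. Read numbers were not given. In each sample many genes shared 1 low value of FPKM times length, and read as 1 fragment it implies 25100000 to 31000000 fragments in mimic samples and 17000000 to 21100000 in controls. Mitochondrial genes made up 14.6%, 24.3% and 38.9% of summed FPKM in mimic samples 1, 2 and 3, and 16.9%, 18.4% and 32.8% in control samples 1, 2 and 3. Of summed FPKM times length, which is nearer a share of fragments, they made up 3.21%, 5.56% and 10.6% in mimic samples 1, 2 and 3. In control samples 1, 2 and 3 that length-weighted share was 3.68%, 4.06% and 8.44%. Defining markers of hepatocytes and hepatoma cells were near 0: none of 12 reached 1 FPKM in all samples, APOA2, APOB, APOH and TTR were listed at 0 in all 6, and albumin (ALB) was at 0 in 5. Their summed level was 0.933 to 1.315 FPKM in mimic samples and 1.12 to 2.11 in controls, so the labelled liver origin is not visible in these genes. Of 6 leukocyte markers only CD68 was at 1 FPKM or more in every sample, and the list summed to 10.9 to 19.0 FPKM in mimic samples and 7.75 to 9.14 in controls. The 4 endothelial markers summed to 0.535 to 0.854 FPKM in mimic samples and 1.425 to 2.94 in controls. CDH5 was at 0.19 to 0.455 FPKM in mimic samples and 0.886 to 2.08 in controls. PECAM1 was at 0.287 to 0.368 in mimic samples and 0.534 to 0.808 in controls. TEK and VWF overlapped between the groups, with VWF at most 0.147. Of 6 fibroblast and stellate markers COL1A1 and ACTA2 were expressed, COL1A2 was at or near 0, and the sum was 19.1 to 20.3 FPKM in mimic samples and 32.7 to 38.4 in controls. The leukocyte, endothelial and fibroblast sums did not overlap between the groups, while the hepatocyte and hepatoma sum did. Within that last list HNF4A was higher in every mimic sample than in every control, and SERPINA1 and TF were lower. The part of these markers in the members' differences was not tested. In bulk RNA, fewer expressing cells and less RNA per cell cannot be told apart.

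The mimic copies hsa-miR-27a-3p, a microRNA of 21 bases from chromosome 19 (13836447 to 13836467, GRCh38.p14, minus strand). Its seed, bases 2 to 8 and shown in capitals, pairs with ACTGTGA in an mRNA, and a following A makes the 8-base site ACTGTGAA. Each gene's longest 3' UTR in GENCODE 29 was searched for the 8mer, for the 7mer-m8 ACTGTGA and for the 7mer-A1 CTGTGAA. Of 10 members, 4 held a match and 6 did not, while 31.6% of 11527 tested genes with a 3' UTR held one. The sites below, in capitals with flanking bases, show that the seed match occurs in members that differed in opposite directions. They run 5' to 3' on the mRNA strand and are written as DNA; the microRNA sequence is from RefSeq.
hsa-miR-27a-3p: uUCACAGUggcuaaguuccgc
ID3 8mer: agcgaaggACTGTGAActtgtggc
ID2 7mer-m8: ttacttggACTGTGAtattcgtt
IER3 7mer-m8: gccttctaACTGTGActccccgc
IER3 7mer-A1: agtatgttCTGTGAAcacaaata
ID3, the only member with an 8mer (7.08% of the searched genes hold one as their longest match), was higher in mimic samples. IER3 and ID2, with a 7mer-m8, were lower. ID4, the fourth with a match, has a 7mer-A1 and was listed at 0. HES1, IER2, IER5, MYC, MAX and ID1 held none, and HES1 and IER2 were lower. A match is a description of letters, not a shown site of action.

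HES1 had the largest difference of the members. It was at 6.83, 7.73 and 5.345 FPKM in mimic samples 1, 2 and 3, against 128.8, 103.5 and 101.6 in control samples 1, 2 and 3. Every mimic sample lay below every control by a wide gap, and the spread within each group was small beside it. The means were 6.64 ± 1.21 FPKM in mimic samples and 111.3 ± 15.2 in controls (SD, n = 3 each), a 16.8-fold lower mean in mimic samples. The log2 fold change was -3.98 (SE 0.17, limma adjusted p = 5.92e-06), or -3.66 after median-of-ratios scaling, and it ranked 13 from the most negative among 14439 genes. The gene lies on chromosome 3 (194136145 to 194138732, hg38, plus strand). Over 18 alternative settings the value stayed between -4.09 and -3.66 and was called in all 18.

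The promoter of HES1 is printed because its textbook regulators leave recognisable words in it. The stretch is the 250 bases before the RefSeq start, chr3:194135898-194136147 (GRCh38.p14, plus strand), with matches in capitals to TGGGAA (the core of an RBPJ site), CACNAG (the N-box bound by HES factors) and TGACG (the core of a cAMP response element), searched on both strands.
HES1 promoter: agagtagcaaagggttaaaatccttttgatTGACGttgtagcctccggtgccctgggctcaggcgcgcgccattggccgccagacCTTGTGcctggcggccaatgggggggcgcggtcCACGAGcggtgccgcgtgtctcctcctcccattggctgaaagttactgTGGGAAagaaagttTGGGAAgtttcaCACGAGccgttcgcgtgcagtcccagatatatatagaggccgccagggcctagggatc
TGGGAA occurred at 84 and 70 bases before the start. At least 2 copies were found in 2.90% of 35116 promoter stretches of the same length, and at least 1 in 20.8%. CACNAG occurred at 165, 132 and 58 bases before the start, and 3 or more copies were found in 0.911% of the stretches. TGACG, at 220 bases before the start, was found in 21.2%.

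Of the other Notch pathway genes, 26 of 37 were tested. Of these, 7 were lower, 1 higher and 18 not called, against 39.6% lower and 12.0% higher among all genes. Their median log2 fold change was -0.04, against -0.29 for all genes and -0.17 for protein-coding genes. On the median-of-ratios scale 3 were lower and 9 higher, against 27.4% and 26.9% of all genes. The list median on that scale was 0.27, against 0.01 for all genes and 0.13 for protein-coding genes. Without mimic sample 3, control sample 1 or control sample 2 the list had 4 lower calls, and without mimic sample 1 it had 3 higher calls. HES4, a repressor of the same family, averaged 12.2 ± 4.96 FPKM in mimic samples and 50.9 ± 7.50 in controls (log2 fold change -2.08, SE 0.27, adjusted p = 0.000485 by limma). MFNG, a glycosyltransferase that modifies Notch receptors, fell to 2.01 ± 0.718 FPKM in mimic samples, against 5.36 ± 0.617 in controls (-1.26, SE 0.22). TLE3, a corepressor used by HES factors, was the gene that rose, with 27.2 ± 2.50 FPKM in mimic samples and 13.6 ± 1.99 in controls (0.97, SE 0.15). RBPJ, the pathway's DNA-binding factor and picked with its values in view, averaged 7.88 ± 0.77 FPKM in mimic samples and 12.8 ± 1.32 in controls (-0.67, SE 0.14, adjusted p = 0.00468), but did not pass after median-of-ratios scaling (-0.36, adjusted p = 0.0809). NRARP, a direct Notch target chosen in the same way, did not pass, with 2.76 ± 0.571 FPKM in mimic samples and 2.36 ± 0.263 in controls (adjusted p = 0.412). The receptor genes NOTCH1 and NOTCH2 did not pass either (adjusted p = 0.367 and 0.0621), also picked with their values in view. On the median-of-ratios scale NRARP, NOTCH1 and NOTCH2 were called higher (adjusted p = 0.0441, 0.0351 and 0.00569).

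Of the immediate early response genes, IER2 and IER3 were lower in mimic samples and IER5 did not pass. IER2, a nuclear protein gene induced by serum, was at 36.01, 24.3 and 24.2 FPKM in mimic samples 1, 2 and 3, against 92.6, 98.9 and 56.6 in controls 1, 2 and 3. The groups did not overlap, with control sample 3 the lowest of its group, and the means were 28.2 ± 6.79 in mimic samples and 82.7 ± 22.8 in controls (SD, n = 3 each). The log2 fold change was -1.52 (SE 0.25, limma adjusted p = 0.00143), between -1.77 and -1.199 over 18 alternatives and called in all. IER3, a stress-induced membrane protein gene that bears on cell survival, was at 94.4, 99.8 and 99.7 FPKM in mimic samples, against 180.0, 184.5 and 168.2 in controls. Replicates of IER3 lay close together, and the group means were 98.0 ± 3.08 in mimic samples and 177.6 ± 8.44 in controls. Its change was -0.85 (SE 0.13, adjusted p = 0.000837), or -0.53 after median-of-ratios scaling (adjusted p = 0.00584). IER5, which acts on the heat shock factor HSF1, was at 21.65, 14.9 and 10.8 FPKM in mimic samples, against 27.4, 25.3 and 18.4 in controls. Its groups overlapped, since mimic sample 1 lay above control sample 3, and the difference did not pass (-0.61, SE 0.26, adjusted p = 0.0831). Without mimic sample 1 it did (-0.86, adjusted p = 0.0115), and without mimic sample 3 it was -0.37 (adjusted p = 0.225). With the replicate number as a block in limma it also passed (adjusted p = 0.0102), but the labels do not state such a pairing. Summed over the 3 genes the level was 134.6 to 152.1 FPKM in mimic samples, against 243.2 to 308.7 in controls, and IER3 was the largest part of that sum in every sample.

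The counting strand was not given, so antisense neighbours limit 2 of these values. AC011446.2, on the opposite strand, shares 946 exon bases with IER2 and was at 1.92, 1.43 and 1.006 FPKM in mimic samples, against 4.04, 6.37 and 4.15 in controls. IER3-AS1 shares 359 exon bases with IER3 and was at 0.937, 0.508 and 0.44 FPKM in mimic samples, against 3.06, 1.197 and 1.34 in controls. Reads in the shared bases cannot be told apart. IER2 lies on chromosome 19 (13150415 to 13154908, plus strand), IER3 on chromosome 6 (30743199 to 30744554, minus strand) and IER5 on chromosome 1 (181088712 to 181092899, plus strand), all hg38.

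Of the relatives named after these genes, IER5L was higher, with 33.8 ± 3.38 FPKM in mimic samples and 16.3 ± 0.64 in controls (1.03, SE 0.13, limma adjusted p = 0.000389). IER3IP1, which encodes an endoplasmic reticulum protein that interacts with IER3, was lower, with 10.35 ± 0.926 FPKM in mimic samples and 21.7 ± 3.10 in controls (-1.02, SE 0.15). Serum response factor (SRF) and its ternary complex and MRTF cofactors drive many immediate early genes. Of these 6 genes 1 was lower, 1 higher and 4 not called, against 39.6% lower and 12.0% higher among all genes. Their median was -0.33, against -0.29 for all genes and -0.17 for protein-coding genes. On the median-of-ratios scale 1 fell and 2 rose, against 27.4% and 26.9% of all genes. Without mimic sample 2 there were 2 lower calls. ELK4, a ternary complex factor, fell to 6.69 ± 0.984 FPKM in mimic samples, against 15.2 ± 1.73 in controls (-1.13, SE 0.15), and the actin-sensing cofactor gene MRTFA rose to 16.6 ± 1.52, against 9.60 ± 1.32 (0.77, SE 0.15). SRF itself did not pass, with 14.8 ± 0.995 FPKM in mimic samples and 17.1 ± 1.63 in controls (adjusted p = 0.221); it was picked with its values in view.

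ID3 and ID1 were higher in mimic samples, ID2 was lower and ID4 had no signal. ID3 was at 96.7, 76.1 and 70.15 FPKM in mimic samples 1, 2 and 3, against 37.7, 32.9 and 26.7 in controls 1, 2 and 3. The groups were well apart, with means of 81.0 ± 13.9 in mimic samples and 32.4 ± 5.55 in controls. The log2 fold change was 1.31 (SE 0.18, limma adjusted p = 0.000589), between 1.17 and 1.63 over 18 alternatives and called in all. Ranked from the most positive, ID3 came at place 163 of 14439 genes. ID1 was at 74.2, 59.7 and 60.8 FPKM in mimic samples, against 52.0, 48.1 and 27.9 in controls. Its groups did not overlap, but mimic sample 2 lay close to control sample 1, and control sample 3 stood low. The change of 0.64 (SE 0.24) had an adjusted p of 0.0496 and kept its direction in 18 alternatives but its call in only 8. The call was lost without mimic sample 1, 2 or 3 (adjusted p = 0.133, 0.0909 and 0.0828), without control sample 2 (0.054) and without control sample 3, where the change was 0.36 (0.103). It was also lost without sample 3 of both groups (0.41, adjusted p = 0.0992). Relative to the shift of all genes the change was larger, at 0.96 after median-of-ratios scaling (adjusted p = 0.00676).

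ID2 was low throughout, at 1.02, 0.422 and 0.444 FPKM in mimic samples, against 1.45, 4.22 and 3.73 in controls. All mimic samples lay below all controls, though control sample 1 was near mimic sample 1. The values correspond to about 70, 23 and 28 implied fragments in mimic samples, against 62, 196 and 140 in controls, by the depth estimate above, so control sample 1, the shallower library, held no more ID2 fragments than mimic sample 1. Its log2 fold change was -1.63 (SE 0.36, limma adjusted p = 0.00679). The mimic mean of 0.63 ± 0.341 FPKM is under the filter of 1 FPKM, so ID2 was tested through its control level of 3.13 ± 1.48. The call was lost after quantile normalization (-0.87, adjusted p = 0.118) and without sample 3 of both groups (-1.36, adjusted p = 0.0748). ID4, a regulator of neural progenitors, was listed at 0 in all 6 samples and was not tested. The ID genes lie on chromosomes 20 (ID1, 31605283 to 31606515), 2 (ID2, 8678845 to 8684453), 1 (ID3, 23557918 to 23559794, minus strand) and 6 (ID4, 19837386 to 19840684), in hg38. ID2-AS1 shares 38 exon bases with ID2 and was at most 0.148 FPKM in mimic samples and 0.441 in controls.

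Levels per gene length can be compared within a sample. ID3 made up 56.2%, 55.9% and 53.4% of the summed ID FPKM in mimic samples 1, 2 and 3, and 41.4%, 38.6% and 45.7% in controls 1, 2 and 3. ID1 was the leading member in every control, with 57.0%, 56.4% and 47.9%, and came after ID3 in every mimic sample, with 43.2%, 43.8% and 46.3%. ID2 never exceeded 0.595% in mimic samples or 6.39% in controls. The summed ID level was 172.0, 136.2 and 131.4 FPKM in mimic samples, against 91.2, 85.3 and 58.3 in controls, so it did not overlap between the groups.

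**Figure D2:**
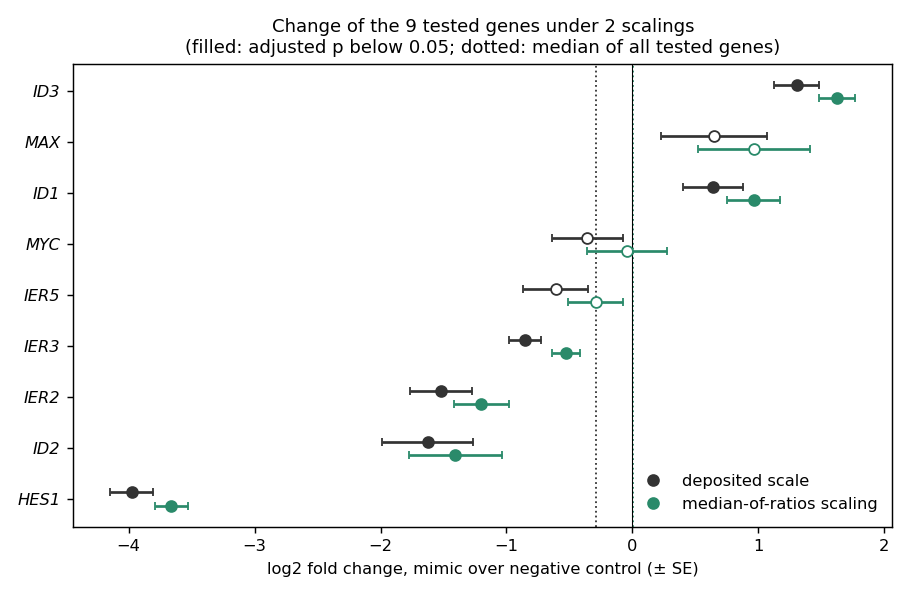
Log2 fold change with SE of the 9 tested genes, mimic over negative control, on the deposited scale (black) and after median-of-ratios scaling (green). Filled points pass an adjusted p of 0.05; HES1 lies at -3.98 and ID3 at 1.31 on the deposited scale, and the dotted lines at -0.29 and 0.01 mark the median of all tested genes.

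The promoters of ID1 and ID3, the members that rose, are given for comparison (250 bases before the RefSeq start, GRCh38.p14). They cover chr20:31605039-31605288 on the plus strand and chr1:23559502-23559751 on the minus strand, each written 5' to 3' toward its gene. The RefSeq start of ID3 lies 293 bases inside the gene span of the deposited files, so its whole stretch lies within that span, while that of ID1 lies 6 bases inside.
ID1 promoter: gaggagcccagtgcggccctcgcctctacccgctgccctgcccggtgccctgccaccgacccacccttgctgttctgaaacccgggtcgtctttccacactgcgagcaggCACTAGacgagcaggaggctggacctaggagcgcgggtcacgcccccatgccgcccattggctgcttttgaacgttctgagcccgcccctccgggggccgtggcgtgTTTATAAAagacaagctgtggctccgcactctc
ID3 promoter: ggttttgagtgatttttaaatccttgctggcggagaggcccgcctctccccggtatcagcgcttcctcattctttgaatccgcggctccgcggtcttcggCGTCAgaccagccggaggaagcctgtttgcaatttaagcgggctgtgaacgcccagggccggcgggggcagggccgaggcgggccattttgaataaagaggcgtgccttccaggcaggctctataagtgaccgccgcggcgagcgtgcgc
Capitals in ID1 mark CACNAG at 140 bases and TATAAA with an overlapping match on the other strand at 31 and 33 bases before the start; 10.7% of promoter stretches hold TATAAA on either strand and 32.0% hold CACNAG. In ID3 they mark TGACG at 150 bases. The BMP-type element GGCGCC, found in 16.4% of stretches, was in neither, and among 8 members with a promoter entry only IER5 held it. Neither the palindromic cAMP element TGACGTCA (1.65%), the MYC-MAX E-box CACGTG (6.34%) nor the CArG box of SRF (1.16%) was found in those 8. No match says only that these letters are not in this window. For ID2 and MAX the RefSeq start lies 3211 and 412 bases inside the deposited gene span, and the MAX stretch holds an annotated start codon, so neither stretch reaches the start of that span. IER3 and MYC had no entry.

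**Figure D3:**
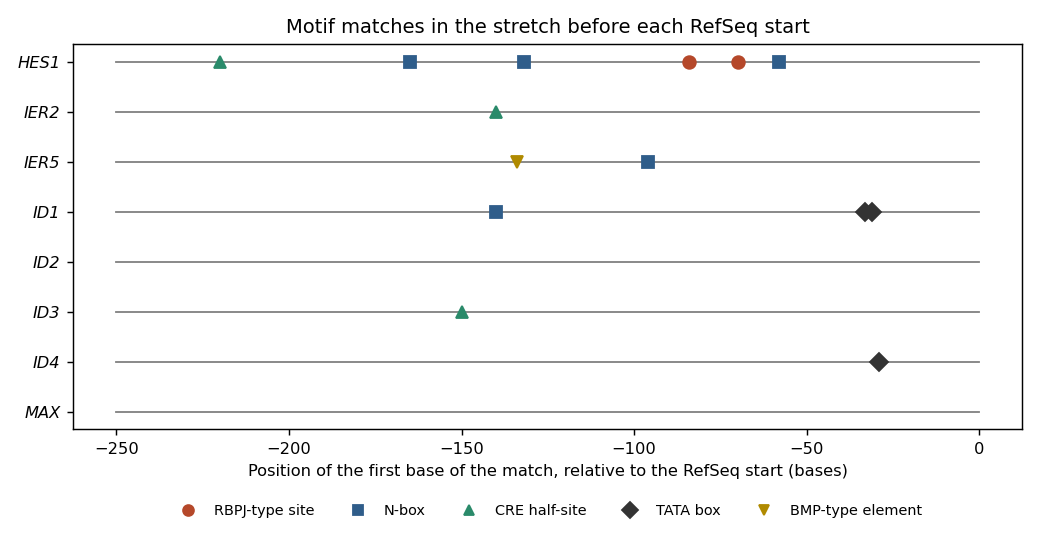
Position of motif matches in the stretch before the RefSeq start of the 8 members with a promoter entry, in bases relative to that start. HES1 carries RBPJ-type matches at 84 and 70 bases and N-box matches at 165, 132 and 58 bases before the start. The stretches of ID2, MAX and ID3 lie inside the gene span of the deposited files.

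The E protein genes, whose products ID proteins bind, were represented by TCF3 and TCF12, since TCF4 was near 0. TCF3 rose to 33.9 ± 3.35 FPKM in mimic samples, against 19.8 ± 0.789 in controls (0.75, SE 0.13, limma adjusted p = 0.00172), and TCF12 did not pass, with 7.54 ± 3.13 in mimic samples and 8.39 ± 2.10 in controls. In the BMP-SMAD list 19 of 25 genes were tested. Of these, 7 were lower, 3 higher and 9 not called, against 39.6% lower and 12.0% higher among all genes. The median was -0.25, against -0.29 for all genes and -0.17 for protein-coding genes. On the median-of-ratios scale 4 genes of the list fell and 7 rose, against 27.4% and 26.9% of all genes. The list median on that scale was 0.03, against 0.01 for all genes and 0.13 for protein-coding genes. Without control sample 2 or control sample 3 there was 1 higher call, and without sample 3 of both groups 3 were lower. SMAD5, a BMP signal transducer, fell to 7.92 ± 1.18 FPKM in mimic samples, against 23.9 ± 3.66 in controls (-1.53, SE 0.17, adjusted p = 0.000209). SMAD7, an inhibitory SMAD that is itself induced by the pathway, fell to 6.09 ± 0.756, against 13.95 ± 0.756 (-1.14, SE 0.14). ATOH8, a helix-loop-helix factor of the hepatic BMP response, rose to 5.36 ± 1.14 FPKM in mimic samples, against 1.44 ± 0.469 in controls (1.61, SE 0.23). HAMP, the liver hormone gene that BMP signalling drives, was at 0 in every mimic sample and at most 0.0402 FPKM in controls. Of 7 CDK inhibitor genes, some of which MYC or ID proteins are known to restrain, 2 were lower, none higher and 5 not called. Among all tested genes 39.6% were lower, so the lower calls are not read as a result about this list. After median-of-ratios scaling none of the 7 was called, and without mimic sample 1 there were 4 lower calls. With all samples the lower genes were CDKN2B, with 12.9 ± 0.378 FPKM in mimic samples and 18.6 ± 0.582 in controls (-0.51, SE 0.12), and CDKN1A, the p21 gene, with 24.5 ± 9.73 in mimic samples and 52.4 ± 8.19 in controls (-1.16, SE 0.31).

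MYC did not differ beyond its spread. It was at 11.4, 16.1 and 15.8 FPKM in mimic samples 1, 2 and 3, against 12.6, 17.4 and 28.4 in controls 1, 2 and 3. The groups overlapped, and control sample 3 was the only value above 20 FPKM. The log2 fold change of -0.36 (SE 0.28, limma adjusted p = 0.325) lay near the median of all genes and was -0.04 after median-of-ratios scaling (adjusted p = 0.926). It was -0.05 without control sample 3 and -0.62 without control sample 1 (adjusted p = 0.868 and 0.0803), and it was called in none of 18 alternatives. MYC lies on chromosome 8 (127735434 to 127741434, hg38, plus strand).

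MAX was at 10.7, 27.1 and 39.2 FPKM in mimic samples 1, 2 and 3, against 15.4, 14.1 and 13.2 in controls 1, 2 and 3. Mimic sample 1 was the lowest of all 6 and mimic samples 2 and 3 were the highest, so the mimic SD was 14.3 and the control SD 1.12. The log2 fold change of 0.65 (SE 0.42, limma adjusted p = 0.231) did not pass. This value rested on single libraries: it was 1.17 without mimic sample 1 (adjusted p = 0.00136) and 0.26 without mimic sample 3 (adjusted p = 0.58). The mitochondrial share of mimic samples was likewise lowest in sample 1 and highest in sample 3. In controls that share also rose from sample 1 to sample 3 (16.9%, 18.4% and 32.8% of summed FPKM), while MAX fell. A link between that share and MAX was not tested. With FPKM rescaled to leave out the length-weighted mitochondrial share, the change in MAX was 0.67 (limma adjusted p = 0.232). The share left out there was 3.21% to 10.6% in mimic samples and 3.68% to 8.44% in controls, not the larger share of summed FPKM. AL139022.1, on the opposite strand, shares 184 exon bases with MAX and was at most 0.149 FPKM in mimic samples and 0.982 in controls. MAX lies on chromosome 14 (65006174 to 65102695, hg38, minus strand).

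Other genes of the MYC-MAX network, whose products compete for MAX or its relative MLX, moved in both directions. Of 10 tested, 2 were lower, 3 higher and 5 not called, against 39.6% lower and 12.0% higher among all genes. Their median was 0.07, against -0.29 for all genes and -0.17 for protein-coding genes. On the median-of-ratios scale 2 fell and 4 rose, against 27.4% and 26.9% of all genes. MXD1, a MAX-bound repressor that opposes MYC, rose to 7.32 ± 0.908 FPKM in mimic samples, against 1.55 ± 0.453 in controls (1.95, SE 0.19, limma adjusted p = 0.00013). MNT, another MAX-bound repressor, fell to 12.55 ± 1.47, against 24.9 ± 2.35 (-0.96, SE 0.14). MLXIPL, the glucose-sensing factor also called ChREBP, fell to 20.7 ± 0.874 FPKM in mimic samples, against 55.2 ± 4.62 in controls (-1.39, SE 0.13). MYCN was near 0, and MYCL, picked with its values in view, was at 2.28 ± 0.367 in mimic samples and 1.12 ± 0.149 in controls (adjusted p = 0.0049).

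Among 14 MYC cofactor and turnover genes 3 were lower, 3 higher and 8 not called (2 lower and 8 higher on the median-of-ratios scale). Of all tested genes 39.6% were lower and 12.0% higher, or 27.4% and 26.9% on that scale. Without mimic sample 2 only 1 gene of this list was higher. FBXW7, the ubiquitin ligase subunit that marks MYC for degradation, fell to 2.78 ± 0.327 FPKM in mimic samples, against 6.32 ± 0.343 in controls (-1.06, SE 0.14, limma adjusted p = 0.000473). USP36, a deubiquitinase that stabilises MYC, fell to 15.6 ± 0.915, against 30.6 ± 5.33 (-0.93, SE 0.16), and RUVBL2, an ATPase partner of MYC, rose to 96.0 ± 14.6, against 55.3 ± 0.912 (0.78, SE 0.14). In the list of MYC target genes 28 of 30 were tested. Of these, 11 were higher, 1 lower and 16 not called, against 12.0% higher and 39.6% lower among all genes. Their median log2 fold change was 0.32, against -0.29 for all genes and -0.17 for protein-coding genes. On the median-of-ratios scale 22 were higher and none lower, against 26.9% and 27.4% of all genes. The list median on that scale was 0.64, against 0.01 for all genes and 0.13 for protein-coding genes. IPO4, a nuclear import factor, rose to 16.7 ± 3.92 FPKM in mimic samples, against 3.62 ± 0.992 in controls (2.06, SE 0.23). CAD, which starts pyrimidine synthesis, rose to 41.4 ± 5.91, against 20.8 ± 2.26 (0.97, SE 0.15), and the spermidine synthase gene SRM to 75.0 ± 8.20, against 40.45 ± 5.32 (0.88, SE 0.15). The gene that was lower was TFRC, the transferrin receptor, named after its value was seen (-0.91, SE 0.33, adjusted p = 0.0486), and no gene of the list was lower in 9 of 18 alternatives. Many genes of this list are driven by other factors as well.

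**Figure D4:**
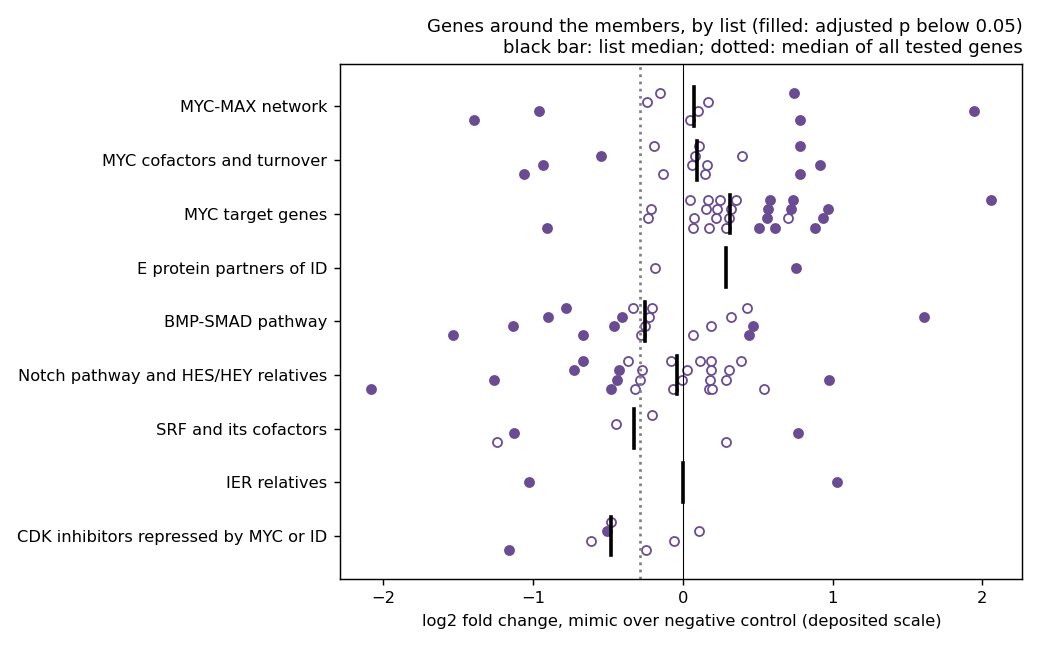
Log2 fold change, mimic over negative control on the deposited scale, of the tested genes in 9 lists around the members; filled points pass an adjusted p of 0.05. The median bar of the MYC target genes lies at 0.32, right of the dotted line at -0.29 that marks the median of all tested genes, and the CDK inhibitor bar lies at -0.48.

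Ratios between members within a sample do not depend on the scaling of a whole library, apart from the pseudocount. They were compared by an exact permutation test over 3 against 3 samples, two-sided, which cannot give a p below 0.1. In all, 8 ratios were computed, and the adjusted p covers all of them, but that of ID4 over ID2 holds only the pseudocount for ID4 and is not read. HES1 over ID1 had log2 values of -3.35, -2.87 and -3.39 in mimic samples, against 1.30, 1.10 and 1.84 in controls, so HES1 was below ID1 in every mimic sample and above it in every control (difference -4.62, exact p = 0.1, adjusted p = 0.133). ID1 over ID3 was -0.38, -0.35 and -0.20 in mimic samples, against 0.46, 0.54 and 0.07 in controls, a difference of -0.67 without overlap (exact p = 0.1, adjusted p = 0.133). ID2 over ID3 differed by -2.93 and ID1 over ID2 by 2.27, each without overlap and with the same p. ID2 is near the pseudocount, and these differences were -3.62 and 2.95 with no pseudocount and -2.58 and 1.92 with a pseudocount of 1. IER2 over IER5 was 0.72, 0.69 and 1.13 in mimic samples, against 1.74, 1.95 and 1.598 in controls (difference -0.91, exact p = 0.1). IER3 over IER5 overlapped (difference -0.25, exact p = 0.6), and so did MYC over MAX, at 0.09, -0.73 and -1.28 in mimic samples, against -0.28, 0.30 and 1.08 in controls (difference -1.005, exact p = 0.2). The difference for MYC over MAX was -0.65 without control sample 3, -0.68 without mimic sample 3 and -0.33 with both of these left out.

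**Figure D5:**
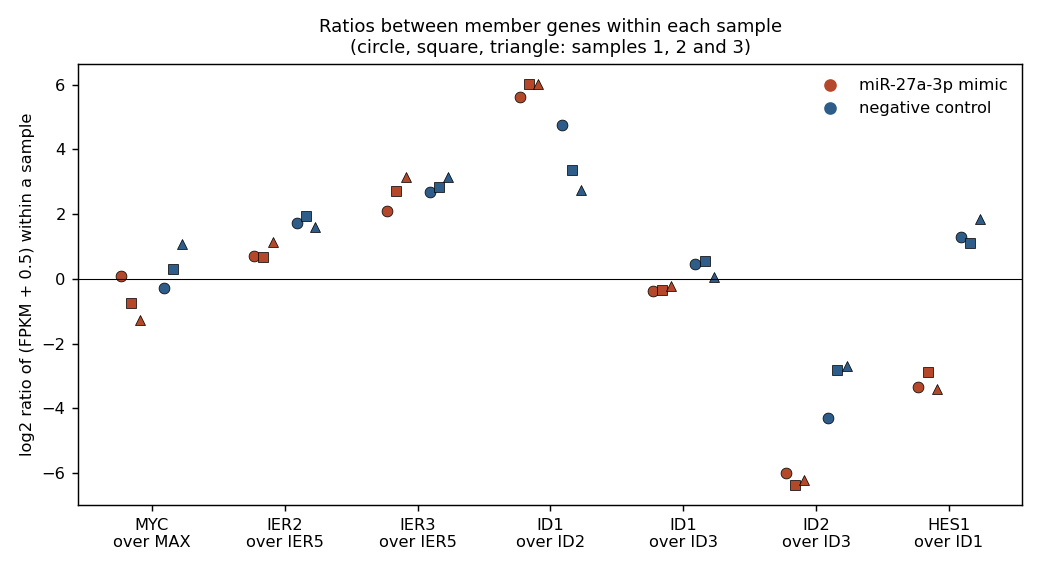
Log2 ratio of (FPKM + 0.5) between member genes in each mimic sample (left, red) and negative control sample (right, blue). HES1 over ID1 lies between -3.39 and -2.87 in mimic samples and between 1.10 and 1.84 in controls, and MYC over MAX overlaps.

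Exon length and the density of ATTTA in the 3' UTR are features that the choice did not use, and the members varied widely in the second. Their annotated exon length lay near or below the middle, between the 12.9th and 50.8th percentile of tested genes. ID1 was the shortest at 1233 bases and MAX the longest at 4430. The pentamer ATTTA, the core of AU-rich elements that mark short-lived mRNAs, was found in 73.0% of tested 3' UTRs, with a median density of 1.48 per kilobase. MYC had 4 in 476 bases (8.40 per kilobase, 99.1st percentile), IER3 had 6 in 903 bases (6.64, 97.7th percentile), and ID2 had 3 in 776 bases (3.87). IER5 had 10 in 3013 bases (3.32). HES1 and IER2, which were lower, had none in 499 and 1050 bases. ID1 had 1 in 678 bases, ID3 1 in 523 and MAX 3 in 2601. Any link between the density of this word and the members' change was not tested.

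The genes whose log2(FPKM + 0.5) pattern over the 6 samples was most like a member's were found by Pearson's r among all tested genes, as a description with no test. HES1 was matched most closely by LHX4 (r = 0.9997 over 6 samples), which was at 3.02, 3.25 and 2.83 FPKM in mimic samples, against 8.98, 8.39 and 8.503 in controls. The closest to ID3 were PSMD1 and NDUFA11 (r = 0.998 and 0.997), and to ID1 NECTIN2 and PROCR (r = 0.993 each). IER2 was matched by SLC22A18 and KAT2A (r = 0.998 and 0.997) and IER3 by HERC2P3 and LINC02482 (r = 0.9999 and 0.9996). IER5 was followed by ANAPC16 and CCT8 (r = 0.996 each), and ID2 by ELOVL6 and SNRPA1P1 (r = 0.993 and 0.992). MYC was closest to RNF111 (r = 0.985) and MAX to ROGDI and OTX1 (r = 0.981 and 0.975). The second gene for HES1 and for MYC had no symbol. The 6 points of each pair share their libraries and fall into the same groups of 3.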

How the data were processed

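mRNA of 6 samples was analysed, 3 per treatment. The deposited tables hold FPKM for 58174 genes per the file headers, with 1 value per gene and sample; tables of single samples held the same values as the series table. FastQC, HISAT2 and hg38 are named by the submitters' processing notes; the FPKM tool, strand setting and annotation release were each not given in the sources used here. FPKM are relative to each library's total, and reads per gene are unknown, so no count test and no counting interval is given.

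Groups follow the treatment label. The 14439 genes averaging 1 FPKM or more were tested with limma-trend (limma 3.58.1, R 4.3.3) with robust moderation on log2(FPKM + 0.5), Benjamini-Hochberg adjusted at 0.05. That step was also run on simulated data with independent noise and far fewer changed genes than were called here. Such a run does not check the fit under the conditions of these data. Ratios between members used exact permutation tests. Exon lengths and 3' UTRs came from GENCODE 29, whose coordinates equal the deposited ones for the members, and promoters from RefSeq. Context list genes named besides the members are up to 3 called genes with the smallest p in each list. TCF12, TCF4, HAMP and MYCN were named outside that rule, and other exceptions are marked where they appear. Members, lists and tests were chosen with earlier results of these data known. Alternatives were pseudocount, filter, scaling, GC and length correction, replicate number as a block and leaving out samples.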

Additional observations from a re-analysis of the deposited data

How the results depend on the processing

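HES1, IER2, IER3 and ID3 kept direction and call in all 18 alternatives, and no member changed direction in any of them. ID1 was the member whose call was lost most often: 1 member instead of 2 was called higher with a pseudocount of 0.1, with no filter, with a mean of at least 5 FPKM, without robust moderation and without sample 3 of both groups, and leaving out 1 sample at a time gave 1 to 2. Genes called lower, 5718 in the main analysis, numbered 8755 with no filter, 2916 at a mean of at least 5 FPKM, 3289 after quantile normalization, 3363 after GC and length correction and 3371 with that correction and the replicate block. Genes called higher, 1735 in the main analysis, numbered 3889 after median-of-ratios scaling, 3592 after quantile normalization, and 3791 and 3930 after GC and length correction without and with the block. Context list genes numbered 24 lower and 24 higher; median-of-ratios scaling gave 13 lower and 54 higher, and quantile normalization 43, GC and length correction 48 and that correction with the block 52 higher. The difference in the log2 ratio of IER3 over IER5, -0.25 with all samples, lay between -0.497 and 0.0297 when 1 sample was left out, and was 0.0297 without mimic sample 1. The cause of these differences was not tested. With the replicate number as a block, 5 members were lower and 2 higher, since IER5 was then called (adjusted p = 0.0102, or 0.026 with GC and length correction), 4 CDK inhibitor genes were lower, and 5994 genes were lower and 2117 higher. The labels do not say whether equal numbers mark paired samples. Correlations of same-numbered deviations were 0.18, -0.05 and 0.22 for samples 1, 2 and 3. Those of differently numbered samples lay between -0.28 and 0.13, so these values do not settle whether the samples were paired. ID2, at 23 to 196 implied fragments, is the tested member that depth limits most.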
